A study of Mus musculus with 6 samples.

Results

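The genes described here are Otx2, Fgf5, Pou3f1, Zic2, Zic5, Etv4, Etv5, Lef1 and Sox11, known from the formative and primed epiblast, and they were taken as a list by symbol: 9 genes of the 22600 in the count table, all of which were measured and all of which passed the filter on low counts. RNA-seq had been made from mouse embryonic stem (ES) cells and from FLICs, a differentiated cell population that the labels derive from ES cells. The cells were of the C57BL/6 strain and had been cultured for 96 h. Untreated cells are labelled wild-type, and cells given OHT (hydroxytamoxifen, a usual switch for tamoxifen-dependent Cre) for 3 days are labelled TRF2-/-. TRF2 is the shelterin protein that shields chromosome ends, and the title and design text set the question of how its loss is met by pluripotent and by differentiated cells. The 6 libraries were 2 of untreated ES cells, 2 of ES cells with OHT, 1 of untreated FLICs and 1 of FLICs with OHT. No library had OHT without the loss of TRF2, so the effects of the compound and of the loss cannot be told apart. The labels name neither the Cre driver nor the line or number of clones behind the cells.

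Mouse ES cells in the naive state resemble the epiblast before implantation. As they leave that state, FGF signalling through ERK and the homeodomain factor OTX2 redirect OCT4 to new enhancers, genes such as Fgf5, Pou3f1 and Zic2 are switched on, and the formative and then the primed state follow. Etv4 and Etv5 are direct outputs of FGF-ERK signalling, and LEF1 is a nuclear partner of beta-catenin in the WNT pathway. Several of these genes are used again later, in the neural plate, the neural crest and mesenchyme, so that their RNA alone does not name a cell type.

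Total counts ran from 23534551 to 43965309 per library, and a count of 0 would allow up to 3 counts, or 0.0686 to 0.118 CPM (counts scaled to library size), for counting error only. Terf2, the gene of TRF2, had 554 and 732 counts in untreated ES cells against 9 and 10 with OHT, and 268 against 5 in FLICs, so each library matched its label. The ES cell markers Pou5f1 (1288 to 1441 CPM) and Zfp42 (99.2 to 114.5 CPM) were high in all 4 ES cell libraries, and these were chosen as a check after values had been seen. In FLICs, Zfp42 had no counts, while Pou5f1 remained at 80.9 CPM without OHT and 47.3 CPM with it. Of 12 fibroblast and mesenchyme markers, 10 were at 1 CPM or more in both FLICs libraries. The 12 summed to 7459 and 8821 CPM against 277 to 409 CPM in ES cells. Vim made up most of each sum, at 6173 and 6652 CPM in FLICs and 258 to 397 CPM in ES cells. Thy1 and Pdgfra, below 1 CPM in FLICs, were lower there than in any ES cell library. The untreated ES cell libraries differed past 2-fold at 0% of genes, but those with OHT did so at 3.7%. Whether libraries with the same treatment are separate cultures is not given, and the p-values then reflect the spread of these libraries alone, which may be technical.

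The promoter sequences of 4 of the genes are shown because they fall on either side of the main contrast of the data: Otx2 and Fgf5, the genes with the lowest levels in ES cells and the largest rise in FLICs, and Zic5 and Lef1, which were lower in FLICs and had the most alike profiles of any 2 of the 9 genes. Each is the 250 bases before the 5′-most start of the gene in RefSeq (GRCm38.p6), written 5′ to 3′ on the strand of the gene, with motif matches on either strand in capitals.
Otx2, chr14:48667645-48667894, minus strand: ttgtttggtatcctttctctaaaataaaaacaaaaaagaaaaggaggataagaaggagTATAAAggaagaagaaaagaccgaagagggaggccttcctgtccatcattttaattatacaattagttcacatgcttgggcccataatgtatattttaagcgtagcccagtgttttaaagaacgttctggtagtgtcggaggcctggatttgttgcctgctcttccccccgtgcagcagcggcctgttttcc
Fgf5, chr5:98253934-98254183, plus strand: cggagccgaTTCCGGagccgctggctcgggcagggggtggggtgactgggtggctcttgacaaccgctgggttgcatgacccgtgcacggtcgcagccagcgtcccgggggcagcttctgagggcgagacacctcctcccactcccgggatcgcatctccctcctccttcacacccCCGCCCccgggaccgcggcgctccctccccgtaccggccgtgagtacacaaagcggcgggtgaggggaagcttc
Zic5, chr14:122465659-122465908, minus strand: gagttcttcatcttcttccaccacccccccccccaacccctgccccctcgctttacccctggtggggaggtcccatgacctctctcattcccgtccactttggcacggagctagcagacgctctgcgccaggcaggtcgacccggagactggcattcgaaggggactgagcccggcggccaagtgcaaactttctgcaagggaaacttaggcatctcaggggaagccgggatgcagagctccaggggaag
Lef1, chr3:131110047-131110296, plus strand: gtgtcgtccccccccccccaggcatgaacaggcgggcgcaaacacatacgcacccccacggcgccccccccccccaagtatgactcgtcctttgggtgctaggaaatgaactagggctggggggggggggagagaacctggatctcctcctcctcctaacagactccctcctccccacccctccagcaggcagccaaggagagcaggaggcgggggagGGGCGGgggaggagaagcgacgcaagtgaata
The capitals mark TATAAA, the letters of the TATA box, in Otx2 from base -192 to -187 before the start. In Fgf5 they mark CCGGAA (the core bound by ETS factors, here read on the opposite strand) from -241 to -236. GGGCGG (GC box) is marked in Fgf5 from -74 to -69 on the opposite strand and in Lef1 from -32 to -27. These are matches of letters, and whether they act as promoter elements was not tested. TATAAA was present in 12.4% of 32851 RefSeq promoter windows of the same length, CCGGAA in 12% and GGGCGG in 32.7%. The GC content was 42% for Otx2 against 70.8% for Fgf5, 62.4% for Zic5 and 66.4% for Lef1, with a median of 52.4% over all windows. None of these 4 windows held CTTTGAA or CTTTGAT (TCF/LEF), TAATCC (OTX), ATGCAAAT (octamer) or CCAAT. The Otx2 start used here lies inside the longer GENCODE gene. So do the starts used for Zic5, whose GENCODE gene spans 122456795 to 122465677, and for Etv5, which is not shown. Of the windows that were matched but are not shown, Etv5 held 3 matches each of GGGCGG and CCAAT, and Sox11 held 2 and 1, where CCAAT was present in 33.8% of all windows. RefSeq windows were matched for 6 of the 9 genes, and Pou3f1, Zic2 and Etv4 were the genes without one.

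In untreated ES cells the 9 genes spanned a wide range of levels, from Etv5 and Etv4 at the top to Fgf5 and Otx2 near the limit of detection. Levels are compared between genes here as CPM per kb of deposited gene length. Those lengths are read as coding lengths, so any reads counted over untranslated regions would raise a value, and orders between genes are approximate. Etv5 (ENSMUSG00000013089, chromosome 16, 22381309 to 22439719, GRCm38), an ETS factor of the PEA3 family, stood at 131 ± 16.2 CPM per kb (SD, n = 2). Its relative Etv4 (ENSMUSG00000017724, chromosome 11, 101769742 to 101785371) followed at 59.4 ± 16.2 CPM per kb (SD, n = 2), and the libraries of these genes did not overlap. Zic2 (ENSMUSG00000061524, chromosome 14, 122475435 to 122479852), a zinc finger factor bound at ES cell enhancers, came next at 23.9 ± 3.48 CPM per kb (SD, n = 2). Lef1, Zic5 and Sox11 were next at 11.0 ± 1.91, 10.2 ± 0.956 and 9.96 ± 1.09 CPM per kb (SD, n = 2), and these neighbours did not differ beyond their spread. Pou3f1 (ENSMUSG00000090125, chromosome 4, 124656807 to 124660655), which encodes the POU factor OCT6, stood at 4.36 ± 0.577 CPM per kb (SD, n = 2). Fgf5 and Otx2 closed the order at 0.314 ± 0.0308 and 0.290 ± 0.115 CPM per kb (SD, n = 2), again without a difference beyond their spread. Etv4 and Etv5 together supplied 75.7% and 77.8% of the summed CPM of the 9 genes in these libraries.

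**Figure D1:**
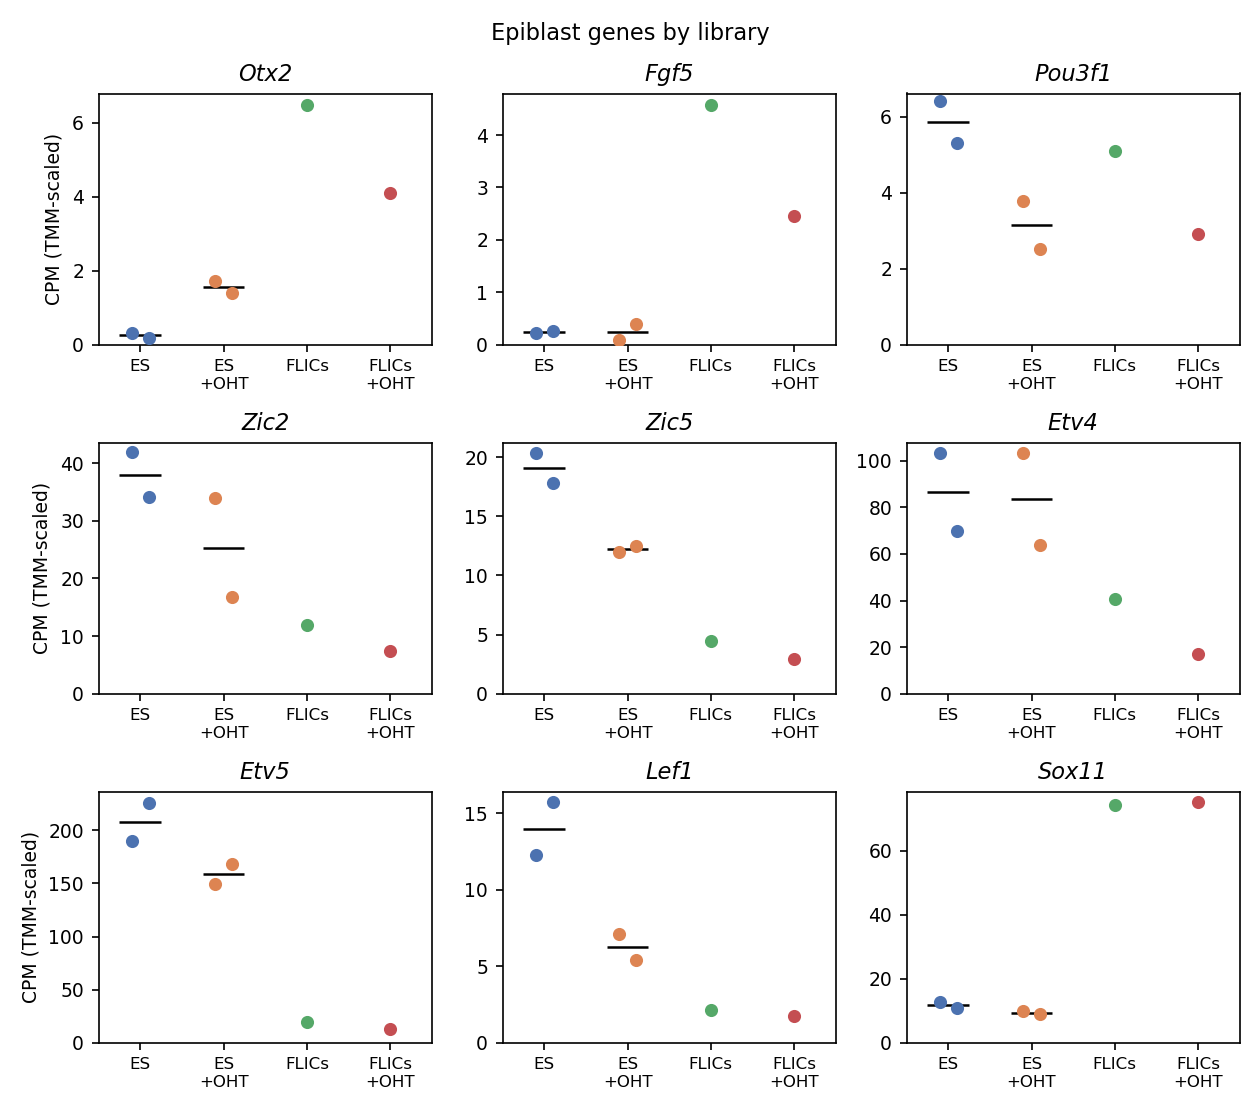
CPM (TMM-scaled) of each of the 9 genes by library, on a linear axis that starts at 0 and differs between panels; points are libraries and bars the mean of the 2 ES cell libraries of a group. Otx2, Fgf5 and Sox11 were highest in FLICs, Zic2, Zic5, Etv4, Etv5 and Lef1 in ES cells, and Pou3f1 had no such split.

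The first comparison asked whether OHT changed these genes in ES cells. Otx2 had the largest difference and the only positive one, and Lef1 and Pou3f1 the largest negative ones, but none of the 9 genes passed the threshold in edgeR, at a background of 0.534% of 15535 genes called (0.521% higher and 0.0129% lower). Of the 9 genes, 5 had an unadjusted p below 0.05 (Otx2, Pou3f1, Zic5, Etv5 and Lef1), where the background is 18.3%, and DESeq2 called Otx2 alone, with 2.39% of all genes called. The libraries of the 2 ES cell groups did not overlap for 7 of the 9 genes, with Otx2 higher and Pou3f1, Zic2, Zic5, Etv5, Lef1 and Sox11 lower with OHT. The background is 52.8% of all genes without overlap, 25.2% higher and 27.6% lower. The median log2 fold change of the 9 genes was -0.39, against -0.01 over all genes tested.

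Otx2 (ENSMUSG00000021848, chromosome 14, 48657677 to 48673819), the homeodomain factor that starts the exit from naive pluripotency, had 10 and 7 counts in untreated ES cells and 55 and 36 counts with OHT, or 0.331 and 0.186 CPM against 1.72 and 1.41 CPM. Both OHT libraries were therefore above both untreated ones, at levels that remained low. The log2 fold change was 2.61 (SE 0.38, 95% interval 1.67 to 3.55, edgeR adjusted p = 0.0612). With DESeq2 it was 2.67 (adjusted p = 0.00511), and over the alternatives the adjusted p ran from 8.05e-11 to 0.532, so that the call depends on the method and on the libraries. A noncoding gene on the other strand, Otx2os1, overlaps Otx2 and was not analysed here. Whether the counting used strand is not stated, although the kit keeps it. Gm2164 overlaps Pou3f1 and Gm43352 overlaps Lef1 in the same way.

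Fgf5 (ENSMUSG00000029337, chromosome 5, 98254184 to 98277030), the secreted growth factor that is the classical marker of the epiblast after implantation, had 7 and 10 counts without OHT and 3 and 10 with it. At this depth no difference was detectable, since the log2 fold change was -0.11 (SE 0.68, edgeR adjusted p = 0.954), and the value changed sign when single libraries were left out. Pou3f1 had 6.42 and 5.32 CPM in untreated ES cells and 3.78 and 2.51 CPM with OHT. Both OHT libraries were lower, and the log2 fold change was -0.89 (SE 0.28, edgeR adjusted p = 0.193).

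Zic2 and Zic5 (ENSMUSG00000041703, chromosome 14, 122456795 to 122465677) are neighbours that are read in opposite directions, with starts 9758 bases apart. Zic2 had 41.9 and 34.1 CPM in untreated ES cells and 33.9 and 16.9 CPM with OHT, so the groups were separate by a narrow margin and the OHT libraries differed from each other. Zic5 had 20.4 and 17.8 CPM without OHT and 12.0 and 12.5 CPM with it, and its OHT libraries lay close together. The log2 fold change was -0.58 for Zic2 (SE 0.33, edgeR adjusted p = 0.398) and -0.64 for Zic5 (SE 0.17, edgeR adjusted p = 0.163).

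The FGF-ERK outputs Etv4 and Etv5 were the most abundant of the 9 genes in ES cells with OHT as well. Etv4 had 103 and 69.9 CPM in untreated ES cells and 104 and 63.8 CPM with OHT, so the groups overlapped and the libraries of each group were far apart. Its log2 fold change was -0.05 (SE 0.29, edgeR adjusted p = 0.950) and 0.00119 with relative log expression scaling. Etv5 had 189.6 and 226 CPM without OHT and 149 and 168 CPM with it, and the log2 fold change was -0.39 (SE 0.16, edgeR adjusted p = 0.273). In the untreated libraries Etv5 exceeded Etv4 by a CPM ratio of 1.84 and 3.23, and with OHT by 1.44 and 2.64.

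Lef1 (ENSMUSG00000027985, chromosome 3, 131110471 to 131224356) had 12.3 and 15.7 CPM in untreated ES cells and 7.08 and 5.41 CPM with OHT, with no overlap. The log2 fold change was -1.16 (SE 0.24, edgeR adjusted p = 0.117). Sox11 (ENSMUSG00000063632, chromosome 12, 27334264 to 27342574), a high-mobility-group factor of neural and mesenchymal progenitors, had 12.7 and 10.9 CPM without OHT and 9.80 and 9.06 CPM with it. Across this narrow separation the log2 fold change was -0.32 (SE 0.16, edgeR adjusted p = 0.332).

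The number of calls in ES cells depended on the 2 OHT libraries, which differed from each other. Without OHT replicate 1, 8 of the 9 genes were called (Otx2 higher, and each of the others but Fgf5 lower), and without OHT replicate 2, 6 were called (Otx2 and Etv4 higher, and Pou3f1, Zic5, Etv5 and Lef1 lower). In those fits the lone OHT library is assumed to vary like the untreated ones, and 40.2% of 15330 and 28.7% of 15259 genes were called, so the gain was not limited to these 9 genes. Without either untreated library none was called. With OHT the order per kb was Etv5, Etv4, Zic2, Sox11, Zic5, Lef1, Pou3f1, Otx2 and Fgf5, and the libraries of Pou3f1 (1.86 and 2.80 CPM per kb) and Otx2 (1.58 and 1.93 CPM per kb) overlapped.

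The second comparison set the differentiated cells against ES cells, both untreated. The 9 genes split: Otx2, Fgf5 and Sox11 were higher in FLICs, Zic2, Zic5, Etv5 and Lef1 were lower, and Etv4 and Pou3f1 did not pass. These 7 calls of 9 stand beside a background of 54.9% of all genes called, with 26.2% higher and 28.7% lower, so most genes differed between the cell types, in the list or not. The untreated ES cell libraries are those of the first comparison. With 1 FLICs library per condition, the spread in the fit was borrowed from the ES cells. In bulk RNA, fewer cells of a type and less RNA per cell cannot be told apart.

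Otx2 reached 6.48 CPM in FLICs, 25.2-fold above untreated ES cells (log2 fold change 4.65, SE 0.40, edgeR adjusted p = 0.000369). Fgf5 reached 4.57 CPM from 148 counts, 18.0-fold above (4.17, SE 0.61, edgeR adjusted p = 0.00259). In ES cells Fgf5 had 3 to 10 counts per library, and it did not pass the count filter when those libraries were fitted alone. Sox11 reached 74.2 CPM from 2403 counts, 6.29-fold above (2.65, SE 0.18, edgeR adjusted p = 0.000163). Sox11 was thereby the most abundant of the 9 genes in FLICs, at 62.6 CPM per kb and 43.8% of their summed CPM, against 3.28% and 2.86% in untreated ES cells. Otx2 and Fgf5 remained at 7.28 and 5.77 CPM per kb.

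Of the genes lower in FLICs, Etv5 fell by 3.39 on the log2 scale (SE 0.23, edgeR adjusted p = 0.000173) to 19.8 CPM. Lef1 fell by 2.72 (SE 0.34, edgeR adjusted p = 0.00137) to 2.13 CPM. Zic5 fell by 2.09 (SE 0.23, edgeR adjusted p = 0.000953) to 4.48 CPM and Zic2 by 1.67 (SE 0.45, edgeR adjusted p = 0.0224) to 11.9 CPM. Etv4, at 40.7 CPM, missed the threshold in edgeR (log2 fold change -1.09, SE 0.37, adjusted p = 0.0511), while DESeq2 called it (adjusted p = 0.0106), with a range of 3.59e-17 to 0.164 over the alternatives. The order of the PEA3 genes was thus reversed, with an Etv5 to Etv4 CPM ratio of 0.487 in FLICs. Pou3f1, at 5.09 CPM, lay just below its untreated ES cell libraries, with a log2 fold change of -0.20 and a 95% interval of -1.02 to 0.62 (edgeR adjusted p = 0.624).

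**Figure D2:**
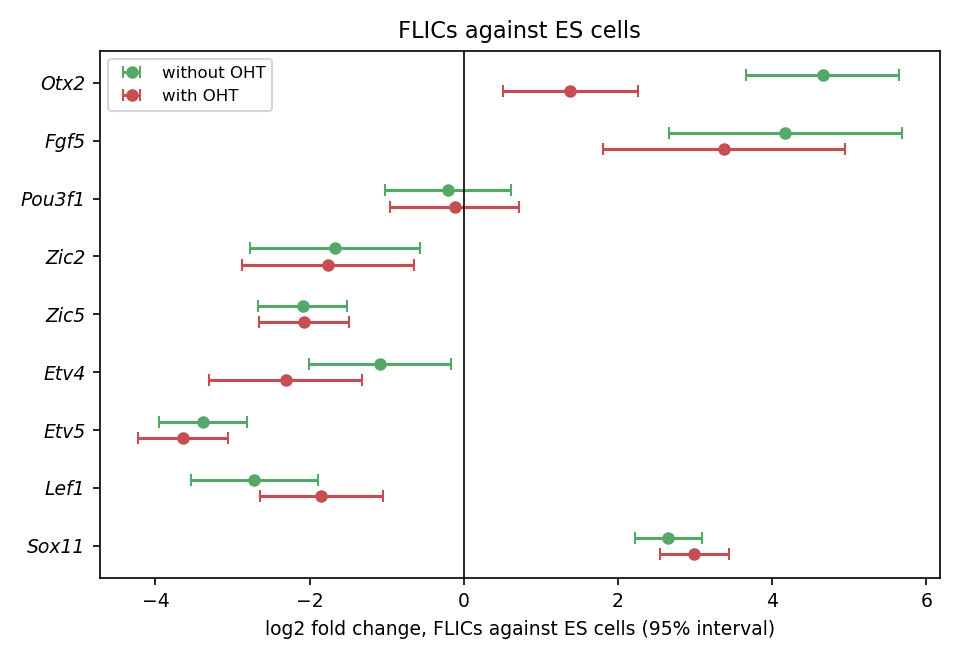
Log2 fold change of FLICs against ES cells for the 9 genes, without OHT (green) and with OHT (red), with 95% intervals from edgeR that borrow the spread of the ES cell libraries. Otx2, Fgf5 and Sox11 lie right of 0 in both, and Pou3f1 spans 0 in both.

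Among the treated libraries, 8 of the 9 genes were called, at a background of 57.7% (28.4% higher and 29.3% lower). The treated and untreated comparisons share no sample, but both take their spread from 1 fit of all 6 libraries, so they are not independent. Otx2 (1.38, SE 0.36, edgeR adjusted p = 0.0190), Fgf5 (3.38, SE 0.64, edgeR adjusted p = 0.00621) and Sox11 (2.99, SE 0.18, edgeR adjusted p = 0.000116) were higher in FLICs. The call of Otx2 was lost with DESeq2 (1.33, adjusted p = 0.0986). Zic2, Zic5, Etv4, Etv5 and Lef1 were lower, by log2 fold changes of -1.76, -2.08, -2.31, -3.64 and -1.85. Pou3f1 did not pass at -0.12 (SE 0.34, edgeR adjusted p = 0.781), and its value was 0.21 without OHT replicate 1 of the ES cells.

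From the families of the 9 genes, 17 further members were listed, which is not the whole of each family. The FGF family, for example, is represented by Fgf4, Fgf8 and Fgf15. Of the 17, 16 were tested and 4 were called higher and 4 lower in untreated FLICs, a share near the 54.9% of all genes. In the ZIC family, Zic1, known from the neural tube and somites, had 0.265 and 0.160 CPM in untreated ES cells but 43.3 CPM in FLICs (7.68, SE 0.51, edgeR adjusted p = 0.000161). In FLICs Zic1 thus stood above both listed ZIC genes, at 32.3 CPM per kb against 7.51 for Zic2 and 2.40 for Zic5.

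In the FGF family, Fgf4, the main autocrine FGF of ES cells, had 97.3 and 95.2 CPM in untreated ES cells but 1.14 CPM in FLICs (log2 fold change -6.39, SE 0.23, edgeR adjusted p = 3.95e-05), opposite to Fgf5. In the SOXC family, Sox4 was higher in FLICs like Sox11, at 114 CPM against 10.5 and 8.14 CPM (3.61, SE 0.30, edgeR adjusted p = 0.000318). In the TCF/LEF family, Tcf7 was lower like Lef1, at 10.6 CPM against 62.3 and 59.2 CPM (-2.52, SE 0.19, edgeR adjusted p = 0.000233). With OHT in ES cells Tcf7 had 39.6 and 36.6 CPM, again below the untreated libraries as for Lef1 (log2 fold change -0.67, SE 0.13, edgeR adjusted p = 0.115). Tcf7l2 was higher in untreated FLICs by 1.08 (SE 0.24, edgeR adjusted p = 0.0125). Tcf7l1, the repressor of the family, had 63.9 CPM per kb in FLICs against 1.67 for Lef1. Etv1, the third PEA3 gene, had 11.5 CPM in FLICs and 12.8 and 10.6 CPM in ES cells (-0.03, SE 0.32, edgeR adjusted p = 0.943). Crx, the photoreceptor relative of Otx2, had no counts in any library, and Pou3f2, Pou3f3 and Pou3f4 stayed below 1 CPM per kb in each, so that Pou3f1 was the most abundant of its class in all 6 libraries.

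**Figure D3:**
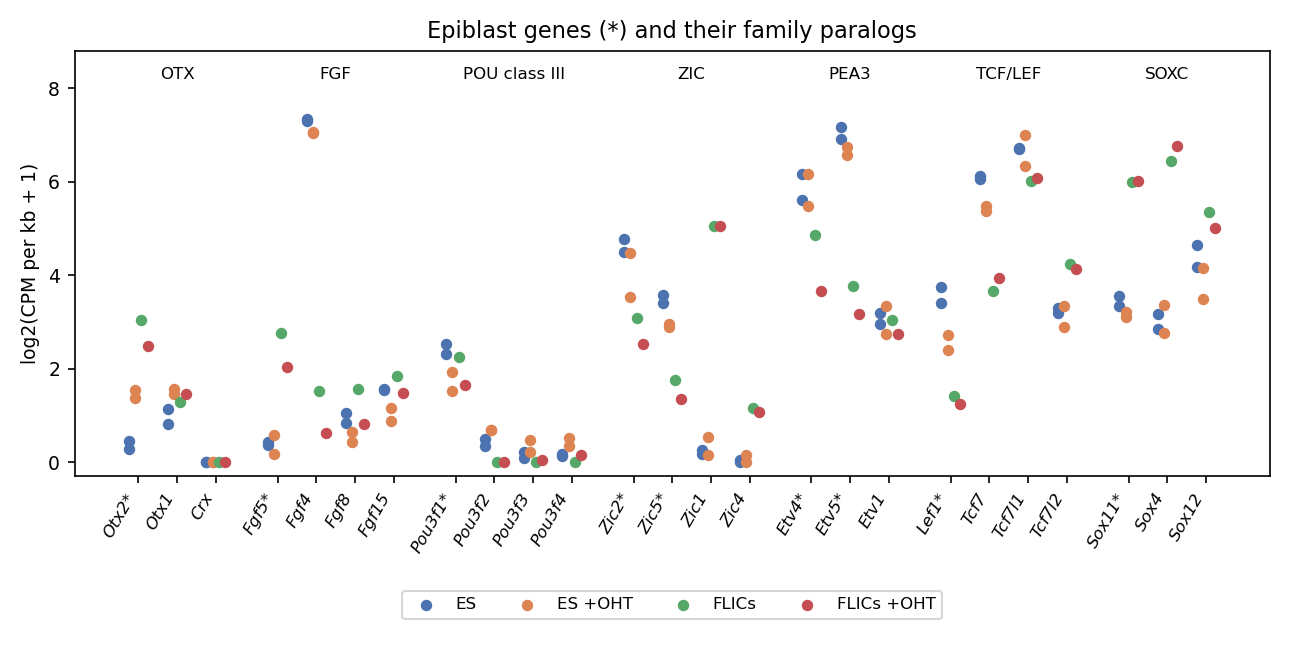
Level of the 9 genes (asterisks) and family paralogs, as log2(CPM per kb + 1), 1 point per library coloured by group. Zic1, Sox4 and Sox11 stand higher in FLICs than in ES cells, Fgf4 and Tcf7 lower.

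The third comparison, OHT in FLICs, had 1 library per condition and was described by size without a test. Of the 9 genes, 8 were lower with OHT, where 43.6% of genes of at least 1 CPM were lower, and the median difference in log2(CPM + 1) was -0.60 against 0.03 over those genes. Etv4 was the 1 gene past 2-fold, at a background of 0.526% of genes past it in either direction (0.424% higher and 0.102% lower). Intervals on the ratios below are exact conditional binomial ones and cover counting error only.

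Etv4 went from 1319 to 739 counts, or 40.7 to 16.9 CPM, a ratio of 0.415 (95% interval 0.379 to 0.455). Its difference was -1.22 in log2(CPM + 1), and it remained past 2-fold with each pseudocount and scaling tried. Etv5 went from 19.8 to 12.7 CPM, a ratio of 0.640 (0.570 to 0.718). Both FGF-ERK outputs were thus lower in the treated library, Etv4 by more, so that the Etv5 to Etv4 ratio was 0.751.

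Fgf5 went from 4.57 to 2.45 CPM (ratio 0.536, 95% interval 0.414 to 0.692) and Pou3f1 from 5.09 to 2.91 CPM (0.570, 0.449 to 0.723). Otx2 went from 6.48 to 4.095 CPM, a ratio of 0.632 (0.515 to 0.775), the direction opposite to that in ES cells. Zic2 went from 11.9 to 7.50 CPM (0.630, 0.542 to 0.732) and Zic5 from 4.48 to 2.91 CPM (0.649, 0.507 to 0.829). Their intervals all lie below 1. Lef1, with 69 and 76 counts, had a ratio of 0.816 with an interval of 0.581 to 1.15 that includes 1. Sox11 was level at 74.2 and 75.1 CPM (1.01, 0.961 to 1.07), and its difference of 0.02 became -0.01 with relative log expression scaling.

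Many genes of the shared pluripotency list had lower values in the same library. Of 9 genes shared by naive and primed pluripotency, 8 were lower with OHT and Dppa4 was higher (2.04 to 2.54 CPM), with a median difference of -0.62, and 2 were past 2-fold. Among the lower ones were Pou5f1 (80.9 to 47.3 CPM), Sox2 (11.3 to 7.07 CPM), Zscan10 (11.7 to 4.71 CPM) and Utf1 (30.2 to 13.6 CPM), all part of the pluripotency network. The summed level of the 9 genes was 701 CPM without OHT and 583 CPM with it, of which the broadly expressed Trim28 made up 540 and 493 CPM. The other 8 genes summed to 161 and 90.5 CPM, against 2779 to 3006 CPM in ES cells. Of the naive genes, 6 were at 1 CPM or more, with 2 higher and 4 lower and a median difference of -0.11, among them Klf4 (16.8 to 20.2 CPM) and Nanog (8.06 to 4.99 CPM), while Zfp42 was at 0 in both libraries. Mesenchyme markers had a median difference of 0.44, with Postn (periostin) at 13.0 and 47.3 CPM and Col1a2 (a collagen chain) at 136 and 251 CPM. The part of these shifts in the values of the 9 genes was not tested.

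**Figure D4:**
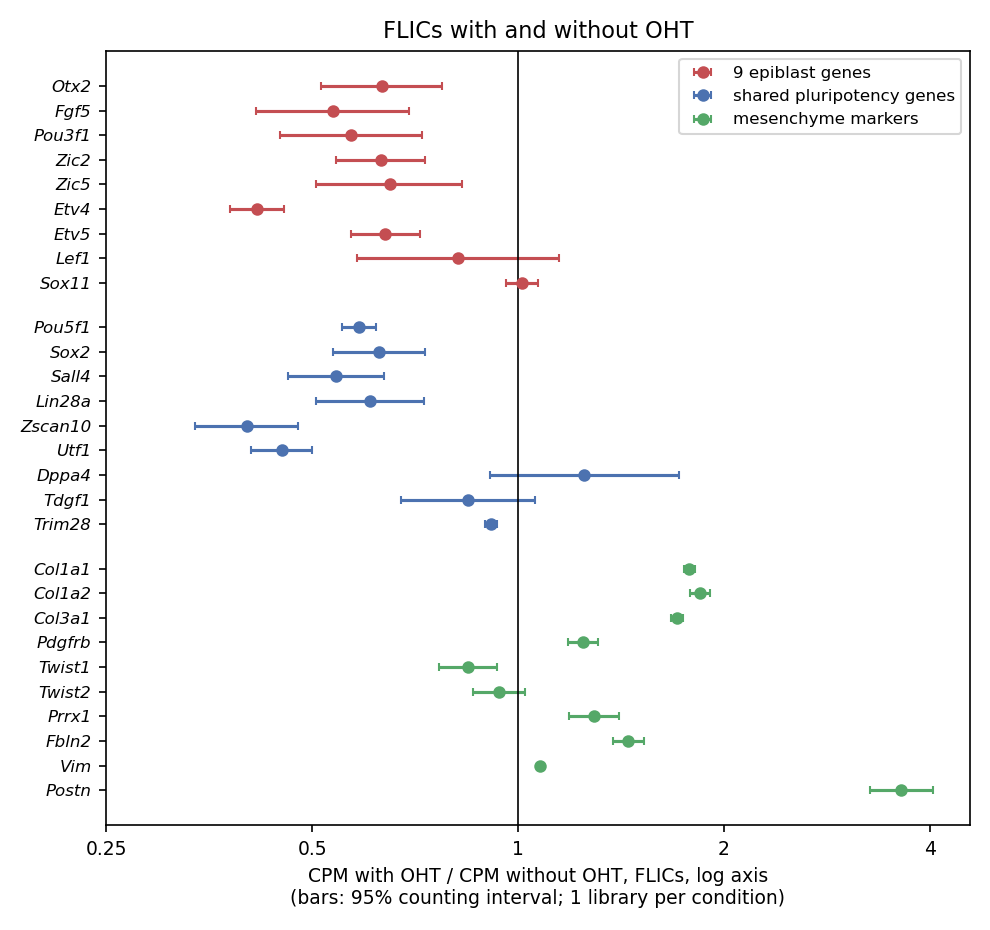
Ratio of CPM with OHT to CPM without it in FLICs on a log axis, with 95% counting intervals, for the 9 genes (red), genes of shared pluripotency (blue) and mesenchyme markers at 1 CPM or more (green). Etv4 lies lowest of the 9 genes at 0.415 and Sox11 at 1.01, while 8 of 10 mesenchyme markers lie right of 1.

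Whether the response to OHT differed between the cell types was tested as an interaction. None of the 9 genes passed in edgeR, where 0% of all 15535 genes were called, and none passed in DESeq2. Otx2 alone had an unadjusted p below 0.05 (6.8% of all genes), with a difference of -3.27 (SE 0.56, edgeR adjusted p = 0.638) between its responses of opposite direction. The interaction value was -1.22 for Etv4 (SE 0.51, edgeR adjusted p = 0.726) and 0.87 for Lef1 (SE 0.43, edgeR adjusted p = 0.750). Without OHT replicate 1 of the ES cells, Otx2, Etv4 and Lef1 were called, and without OHT replicate 2, Otx2 and Etv4, but those fits called 18.3% and 13.4% of all genes and take their spread from the untreated ES cell libraries alone. The other 6 genes had interaction values from -0.79 to 0.34, and the intervals of all of them include 0.

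**Figure D5:**
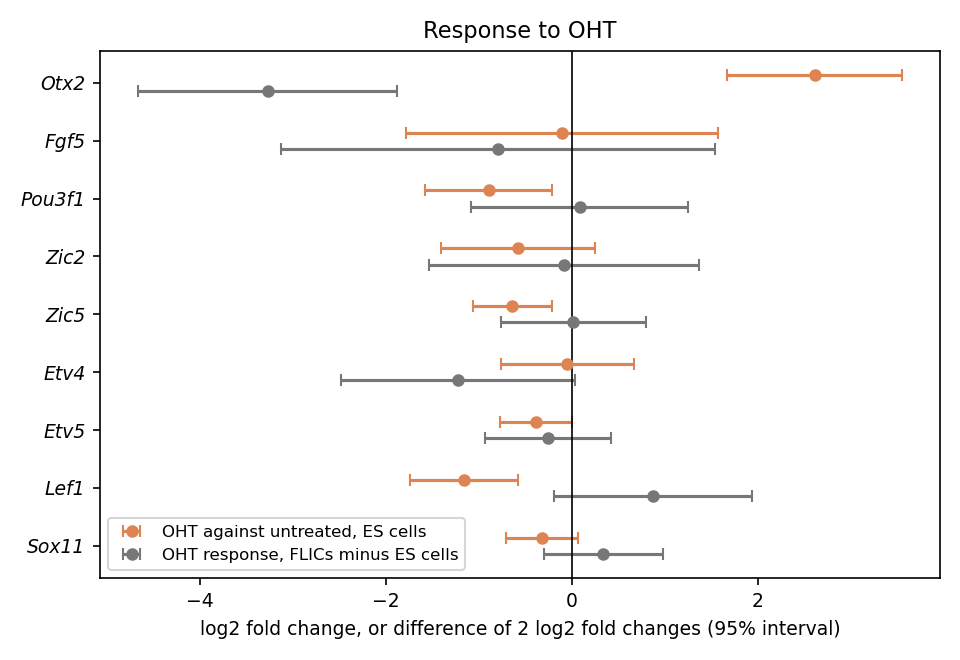
Log2 fold change with OHT in ES cells (orange) and the response in FLICs minus that in ES cells (grey) for the 9 genes, with 95% intervals from edgeR. Otx2 lies at 2.61 and -3.27, and the ES cell intervals of Pou3f1, Zic5, Etv5 and Lef1 lie below 0, that of Etv5 barely.

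The pathways around these genes were followed through lists, and shares over all genes are the background of each. With OHT in ES cells, 18.3% of all genes had an unadjusted p below 0.05, and DESeq2 called 2.39%. In untreated FLICs, 26.2% of all genes were called higher and 28.7% lower than in untreated ES cells. With OHT in FLICs, 0.102% of genes at 1 CPM or more were past 2-fold and lower. Of 27 other formative and primed genes tested, none was called with OHT in ES cells in edgeR (7 at an unadjusted p below 0.05, and 2 called in DESeq2), and the median log2 fold change was 0.10. In untreated FLICs 9 were higher and 13 lower than in ES cells. With OHT in FLICs, 3 of 21 at 1 CPM or more were past 2-fold and lower. These were Dnmt3b, the methyltransferase of the early embryo (54.5 to 24.2 CPM), Utf1, and T, the mesoderm factor Brachyury (2.59 to 0.732 CPM). Pim2, a survival kinase, had 13.5 and 14.4 CPM in untreated ES cells and 23.2 and 23.8 CPM with OHT (0.75, SE 0.15, edgeR adjusted p = 0.115).

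Of 28 FGF-ERK genes, none was called with OHT in ES cells in edgeR (8 at an unadjusted p below 0.05, and 4 called in DESeq2), and the median was -0.13. The phosphatases Dusp4 and Dusp5, which are induced by ERK and dampen it, had log2 fold changes of 1.28 (SE 0.27, edgeR adjusted p = 0.123) and 1.09 (SE 0.25, edgeR adjusted p = 0.140), beside -0.05 for Etv4 and -0.39 for Etv5. In untreated FLICs 11 of the 28 were higher and 5 lower than in ES cells, a share near the 54.9% of all genes called. The ERK phosphatase Dusp6 was higher by 2.59 (SE 0.20, edgeR adjusted p = 0.000242), while Etv5 was lower. With OHT in FLICs none of 26 was past 2-fold, 13 were higher and 13 lower, and the median difference was 0.02. The 2 largest differences were those of Ccnd1 (cyclin D1, 189.9 to 120 CPM) and Dusp6 (118 to 76.5 CPM), both lower. Among the higher ones, named after their values were seen, were Ier3 (59.5 to 78.0 CPM) and Spry1 (7.25 to 9.49 CPM). The relatives of Spry1 in the list were lower, Spry2 at 43.2 to 31.7 CPM and Spry4 at 7.38 to 5.01 CPM.

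Of 30 WNT genes, 21 had negative values with OHT in ES cells and none was called in edgeR (10 at an unadjusted p below 0.05, and 1 called in DESeq2), with a median of -0.22. The beta-catenin targets Axin2 (109 and 106 CPM against 71.8 and 47.4 CPM, log2 fold change -0.85, SE 0.22, edgeR adjusted p = 0.152) and Sp5 (25.8 and 21.1 CPM against 15.8 and 14.3 CPM, -0.64, SE 0.18, edgeR adjusted p = 0.180) had OHT libraries below the untreated ones. Notum (46.4 and 52.6 CPM against 14.1 and 34.4 CPM) and Cdx1 (44.8 and 35.7 CPM against 31.0 and 16.5 CPM) did so too. Other targets had the opposite sign, with Dkk1 at 1.22 (SE 0.28, edgeR adjusted p = 0.141) and Lgr5 at 1.91 (SE 0.71, edgeR adjusted p = 0.244). Lgr5 was near the limit of detection, with 3 and 2 counts untreated and 12 and 5 with OHT. All of these targets were named after their values were seen. The receptor Fzd2 was at 0.78 (SE 0.16, edgeR adjusted p = 0.119). In untreated FLICs 6 of the 30 were higher and 11 lower, again near the 54.9% of all genes called. Axin2 was at 0.586 CPM and Sp5 at 0.309 CPM there, and Lef1 at 2.13 CPM. With OHT in FLICs, 14 of 23 were higher and 9 lower with a median difference of 0.05, and T was the 1 past 2-fold. Nkd1, an inhibitor of the pathway, went from 18 to 81 counts, a CPM ratio of 3.34 (95% counting interval 1.98 to 5.91) but a difference of 0.88 in log2(CPM + 1). Axin2 went from 19 to 49 counts, a ratio of 1.91 (1.10 to 3.44), at a mean of 0.854 CPM, under the 1 CPM limit. Dkk1 and Sp5 went the other way, with ratios of 0.452 (0.336 to 0.603) and 0.148 (0.0158 to 0.696). Sp5 had 10 and 2 counts.

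Lists of naive genes and of other lineages were followed for comparison. In ES cells with OHT the 16 naive genes had a median of -0.40, close to that of the 9 genes, with Tfcp2l1 at -0.87 (SE 0.18, edgeR adjusted p = 0.117) and Esrrb at -0.75 (SE 0.18, edgeR adjusted p = 0.147), and the 9 endoderm genes tested a median of 1.14. The median was 0.22 for 9 neural genes, 0.48 for 12 mesenchyme genes and 0.27 for 11 neural crest and mesoderm genes. None of these lists had a called gene in edgeR. At an unadjusted p below 0.05 there were 9 naive, 5 endoderm, 2 neural, 2 mesenchyme and 2 neural crest and mesoderm genes, and DESeq2 called 3, 2, 1, 0 and 0 of them. Of the neural genes, the eye and forebrain factor Pax6 had 2.05 and 1.15 CPM in untreated ES cells and 7.83 and 4.74 CPM with OHT (1.99, SE 0.37, edgeR adjusted p = 0.0982), higher in both OHT libraries like Otx2. In FLICs Pax6 stood at 36.1 CPM, beside Otx2 at 6.48 CPM. Against untreated ES cells, FLICs had lower levels of all 16 naive and all 9 shared pluripotency genes. Of the other lists, 10 of 12 mesenchyme genes were higher and 2 lower, 4 and 3 of 9 neural genes, 4 and 3 of 9 endoderm genes and 6 and 4 of 11 neural crest and mesoderm genes, at 26.2% of all genes higher and 28.7% lower.

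Similarity of profile was measured as the root-mean-square difference of log2(CPM + 1) over the 6 libraries, each gene centred on its own mean. Among the 9 genes the closest were Zic5 and Lef1 (0.276), Zic2 and Etv4 (0.315) and Zic2 and Zic5 (0.320). Otx2 was closest to Fgf5 (0.458). Etv5 and Sox11 were farthest apart (2.91). Over 12286 candidates, the gene nearest to Otx2 was Snai1 (0.186), and Ccdc74a (0.0949) was nearest to Fgf5. Usp31 (0.142) was nearest to Pou3f1, Adgrl1 (0.112) to Zic2, Dna2 (0.0994) to Zic5 and Nav2 (0.245) to Etv4. Foxd3 (0.121), a forkhead factor of the epiblast, was nearest to Etv5, Cux2 (0.127) to Lef1 and Pclaf (0.0567) to Sox11. These likenesses rest on 6 libraries in which the 2 cell types account for most of the spread, and they are given as a description. The pseudocount of 1 CPM shrinks the changes of genes near the limit of detection, such as Otx2 and Fgf5 in ES cells. Snai1 had 5.76 and 6.28 CPM in untreated ES cells and 29.7 CPM in untreated FLICs, a smaller fold than that of Otx2.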

How the data were processed

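RNA-seq covered 6 libraries of mouse cells. The authors deposited whole-number read counts per gene, not normalized, with gene lengths. Salmon, DESeq2 and GRCm38 are named in the submitters' processing notes without versions or roles, and the strand setting is not given in the sources used here. RNA was isolated with RNeasy and made into TruSeq stranded total RNA libraries, per the labels' protocols. Most lengths (77.6%) were multiples of 3 and are read as coding lengths. Symbols and positions came from GENCODE M21 (22509 matched, 91 not).

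Counts were filtered with filterByExpr (15535 of 22600 genes left), scaled by TMM and fitted with edgeR 4.0.16 (quasi-likelihood, 1 mean per group, 6 libraries, limma 3.58.1, R 4.3.3). Benjamini-Hochberg adjustment ran over all genes tested, and a gene was called below 0.05. The fit had 2 residual and 3.79 prior degrees of freedom and a common biological coefficient of variation of 18.5%. OHT in FLICs was described by size, with a pseudocount of 1 CPM, for genes averaging 1 CPM or more. Alternatives were relative log expression scaling, DESeq2 1.42.0, other filters and pseudocounts, each ES cell library left out, ES cells alone and a replicate block. The 9 genes and all lists were chosen with earlier results of these data known. Of each other list, up to 4 genes were named by a rule, those with the smallest p for OHT in ES cells and those with the largest difference in FLICs. Further genes of these lists, such as Axin2, Spry2 and Pou5f1, were named outside this rule, with their values known. Promoter windows came from RefSeq. Single values of 2 listed genes are not reported here, and the counts of their lists include them.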

Additional observations from a re-analysis of the deposited data

Results flagged for a closer look

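Otx2 was singled out because its response to OHT had opposite directions in the 2 cell types, with an unadjusted p below 0.05 for the difference. It was higher in both OHT libraries of ES cells than in either untreated one and lower in the single treated FLICs library. The response in FLICs minus that in ES cells was -3.27 on the log2 scale (SE 0.56, edgeR adjusted p = 0.638), which does not pass the threshold. The value was -3.14 without OHT replicate 1 of the ES cells and -3.45 without OHT replicate 2, both past the threshold. Those fits take their spread from the untreated ES cell libraries alone, whose biological coefficient of variation was 7.65% against 26.5% for the OHT libraries, and they called 18.3% and 13.4% of all genes, so the 2 values are no further support for Otx2.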

How the results depend on the processing

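With OHT in ES cells, the number of the 9 genes called was 0 in edgeR, 1 with DESeq2, 1 with no count filter, 3 with the replicate block (Otx2, Pou3f1 and Lef1) and 0 to 8 with single libraries left out, and it was 0 with relative log expression scaling, the 5 CPM filter and ES cells alone. The labels do not say whether the replicate numbers pair libraries, and they were taken as names. Differences between replicates correlated between the 2 ES cell groups (r = 0.437 across 15535 genes, which are not independent), and the block raised calls over all genes to 814 higher and 392 lower. The interaction called 0 of the 9 genes, and 0 to 3 with single libraries left out. A tally of log2 fold changes pooled the 9 genes with other named genes, among them Terf2, Axin2, Fgf4 and Pou5f1. In it, values kept their sign and their side of the threshold in 556 cases, passed it in 53, lost it in 7 and changed sign in 20. It is therefore not a measure of the 9 genes alone.

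The sign changed for Etv4 with OHT in ES cells, at 0.00119 with relative log expression scaling, 0.000568 with DESeq2 and 0.0242 with the 5 CPM filter, and -0.44 to 0.30 with single libraries left out. The same leave-outs gave -1.35 to 0.64 for Fgf5 and -0.39 to 1.54 for Zic1. They gave -0.39 to 0.21 for Pou3f1 in FLICs with OHT against ES cells with OHT. The interaction of Zic5 was -0.0613 with relative log expression scaling, -0.0618 with DESeq2 and -0.0600 with the 5 CPM filter, and -0.0821 to 0.11 with single libraries left out. With single libraries left out the interaction was -0.21 to 0.41 for Pou3f1, -0.54 to 0.50 for Zic2, -1.54 to 0.45 for Fgf5 and -1.55 to 0.38 for Zic1. The cause of these changes was not tested. Otx2 and Fgf5 fell below the 5 CPM filter and have no value under it. Depth limits Fgf5 and Otx2 in ES cells, with 3 to 55 counts per library, and FLICs have 1 library per condition.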
